A study of Mus musculus with 6 samples.

Results

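The genes described here serve the unfolded protein response and the integrated stress response of the cell. The list names Atf3, Atf4, Ddit3, Hspa5, Xbp1, Trib3, Chac1, Asns, Dnajb9 and Herpud1, and was matched by gene symbol. All 10 were present among the 17684 genes of the table, and all 10 were among the 13679 genes that had enough counts to be tested. RNA from the kidneys of db/db mice, which lack a working leptin receptor and become obese and diabetic, was sequenced with 1 library per mouse. The Db group held 3 mice on normal saline and the Db + Ato10 group held 3 mice on atorvastatin, an inhibitor of cholesterol synthesis, at 10 mg/kg. Both groups were db/db mice, of strain C57 BLKS/L in the labels and on a C57BLKS/J background in the study's methods. Mice of both groups were treated over 40 weeks and were 50 weeks old. For the statins, the methods give oral gavage on a run of days in each week and not daily. The comparison addressed how the kidney of these diabetic mice differed after prolonged atorvastatin treatment. The study reports higher mortality of db/db mice on statins and raises a possible survivor bias, which it considers may not be the main factor. The libraries describe mice that reached 50 weeks, and the part of survival in the differences was not tested.

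A treatment field of the labels named atorvastatin for all 6 libraries, while the treatment characteristic told saline from atorvastatin, and the groups follow the latter. Total expected counts (estimated reads, not normalized) were 13134930 for Db replicate 1, 11381678 for replicate 2 and 12426051 for replicate 3. In the Db + Ato10 group they were 14578023 for replicate 1, 14667909 for replicate 2 and 13133241 for replicate 3. Expression is given as CPM (counts scaled to the TMM-normalized library size), and 3 counts corresponded to between 0.195 and 0.26 CPM, a limit that covers counting error only. The labelled tissue was checked with its markers: the proximal tubule marker Slc34a1 and the thick ascending limb marker Umod were detected in each of the 6 libraries. Slc34a1 was far lower in Db + Ato10 replicate 1, at 349 CPM, than in the other libraries, where it lay between 1875 and 4264 CPM. The study describes all mice as male. The Y-linked genes Ddx3y, Eif2s3y, Kdm5d and Uty together had 2 counts in Db replicate 1 and between 1419 and 2116 counts in the other libraries, so this library went against that description. Xist is not in the gene table. The study reports extensive macrophage infiltration and worse fibrosis in statin-treated kidneys, from stained sections and not from RNA. In the macrophage and fibroblast marker sums, Db + Ato10 replicate 3 (192 and 224 CPM) was nearer to Db replicate 2 (169 and 169.6 CPM) than to the other Db + Ato10 libraries. Db replicate 1 had the lowest of these sums among the 6 libraries, at 106 and 91.9 CPM. Whether this library comes from the mouse and the group that its label names was not tested, which bears on each Db value below. The gene-level fold change of each of the 10 genes is therefore given with and without Db replicate 1. In bulk tissue, fewer cells of a type and less RNA per cell cannot be told apart.

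Unfolded proteins in the endoplasmic reticulum (ER) are sensed by IRE1, PERK and ATF6. IRE1 removes a short intron from Xbp1 mRNA, PERK phosphorylates the translation factor eIF2, and ATF6 is released from the membrane by proteases. Phosphorylated eIF2, which other kinases produce on amino acid shortage, viral RNA or heme loss, lowers general translation and favours translation of Atf4 mRNA, so that ATF4 protein is controlled in large part without a change of its mRNA. In the kidney these responses are best known in podocytes and in proximal tubule cells under protein overload or ischemia.

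Across the 10 genes, 7 had a higher and 3 a lower fitted level in Db + Ato10 than in Db, with a median log2 fold change of 0.25, against a median of -0.01 over all tested genes. With edgeR, 0 of 10 passed a fold change over 1.5 and an adjusted p under 0.05, as did 0 of 13679 genes (0%). At an unadjusted p under 0.05, edgeR found 2 of the 10 (Atf3 and Asns) and 2314 of all genes (16.9%). DESeq2 called 1 of the 10 (Atf3, higher) and 884 of 13679 genes (6.46%), of which 707 were higher and 177 lower. The groups did not overlap for 1 of the 10 genes in the higher direction (Atf3), against 11.8% of all tested genes, and for 0 of 10 in the lower direction, against 11.4%. The share of members passing was thus close to the background in each of these counts. The DESeq2 call of Atf3 was lost when any library other than Db + Ato10 replicate 3 was left out. Its DESeq2 log2 fold change (2.53 with all libraries) then lay between 2.26 and 2.86, except for 1.09 when Db + Ato10 replicate 1 was left out. Without Db replicate 1, DESeq2 called 0 of the 10 genes and 195 of 13588 (1.44%), with 3 of the 10 and 1634 of the 13588 at an unadjusted p under 0.05. EdgeR then called 0 of either, with 1 of the 10 and 1043 of the 13588 at an unadjusted p under 0.05. Without Db + Ato10 replicate 3, edgeR called 0 of the 10 and 1106 of 13517 (8.18%), with 4 of the 10 and 4038 of the 13517 at an unadjusted p under 0.05. DESeq2 then called 4 of the 10, Atf3, Asns and Trib3 as higher and Herpud1 as lower, and 2614 of 13517 genes (19.3%). The DESeq2 count over all genes was 623 when Db replicate 2 was left out, 223 for Db replicate 3, 313 for Db + Ato10 replicate 1 and 372 for Db + Ato10 replicate 2. With 3 libraries in each group, the smallest p that an exact two-sided permutation test allows is 0.1.

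**Figure D1:**
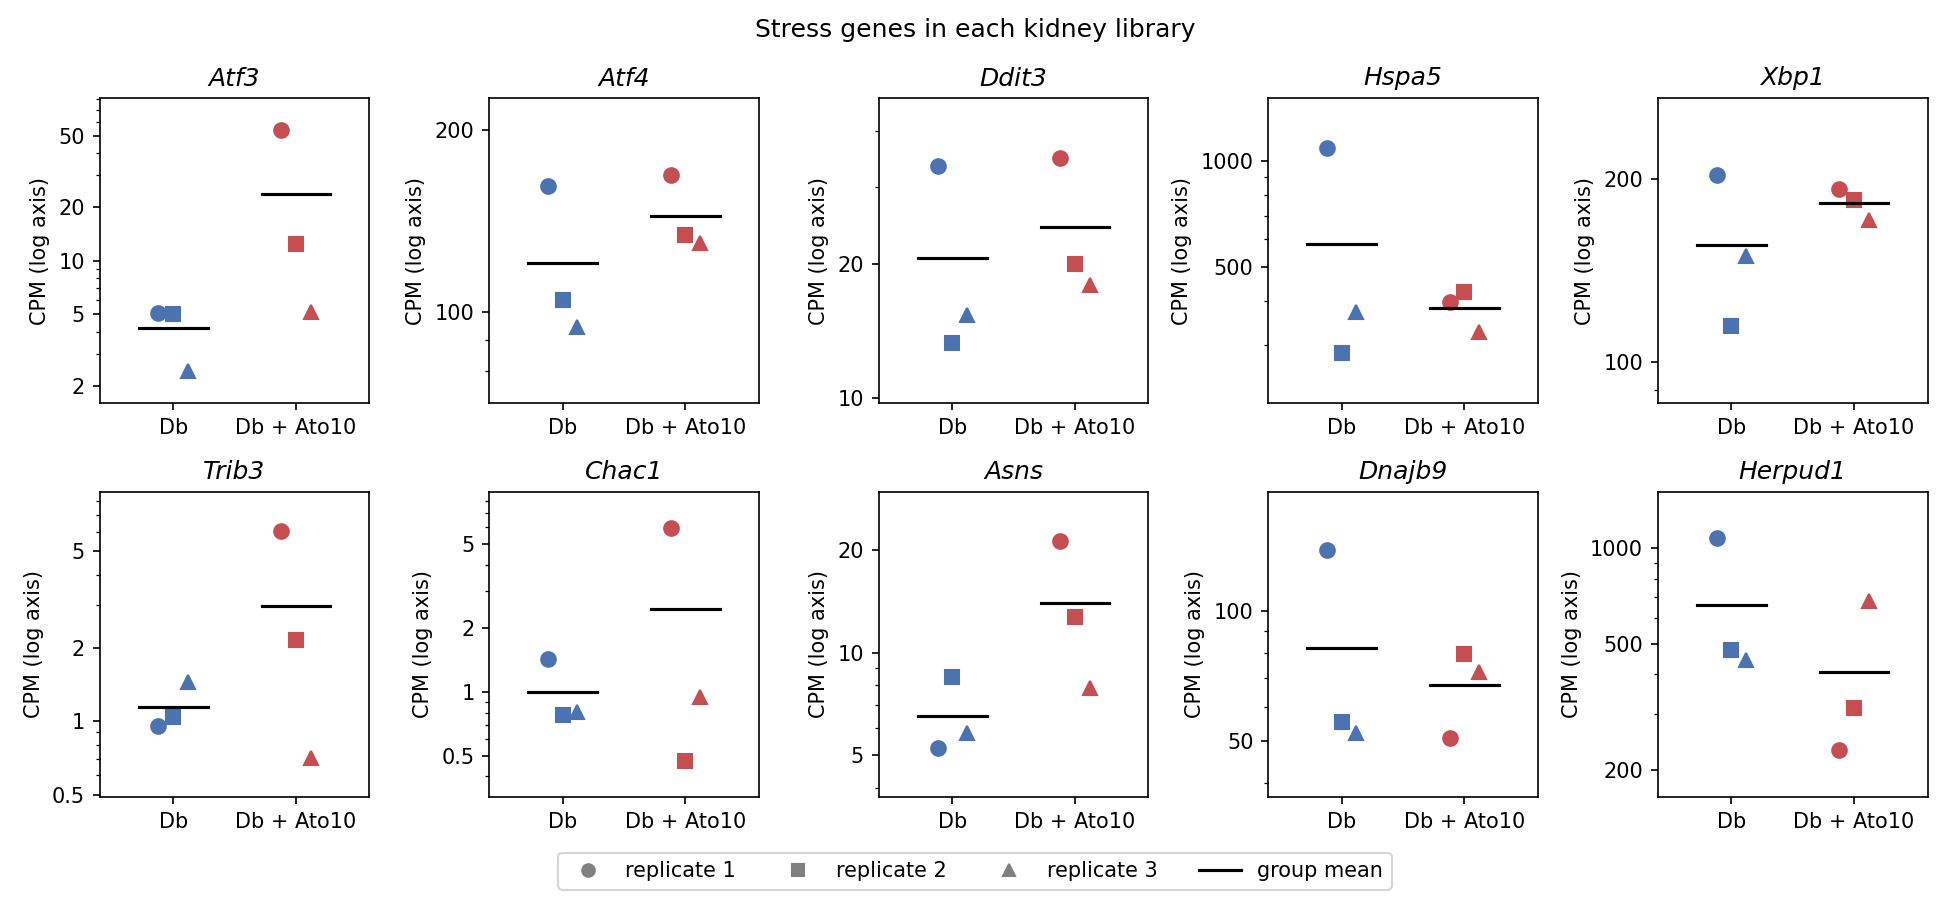
CPM (log axis) of the 10 stress genes in the 3 Db and 3 Db + Ato10 kidney libraries, with a marker shape per replicate and a line at each group mean. The highest point of each panel is a library numbered 1, for example 1089 CPM of Hspa5 in Db replicate 1 and 53.5 CPM of Atf3 in Db + Ato10 replicate 1.

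Per length, the order of the 10 genes in the Db group ran from Herpud1 (mean 640.1 TPM, counts scaled to transcript length and to a common total) through Hspa5 (408), Atf4 (136), Xbp1 (125), Dnajb9 (80.4), Ddit3 (42.4), Asns (6.16), Atf3 (3.84) and Chac1 (1.19) to Trib3 (1.01). In the Db + Ato10 group the mean TPM was 373 for Herpud1, 255 for Hspa5, 156 for Atf4, 139 for Xbp1, 63.2 for Dnajb9, 45.5 for Ddit3, 20.1 for Atf3, 12.4 for Asns, 2.67 for Chac1 and 2.44 for Trib3. Only Atf3 and Asns exchanged places between the orders of the groups. Over the 3 Db libraries the TPM ranges of neighbours in this order overlapped for 5 pairs: Herpud1 and Hspa5, Atf4 and Xbp1, Xbp1 and Dnajb9, Dnajb9 and Ddit3, and Chac1 and Trib3. The other 4 pairs did not overlap. For example, Atf4 had 181, 120.1 and 109 TPM and Xbp1 had 163, 92.0 and 119.8 TPM in Db replicates 1, 2 and 3, while Hspa5 had 763, 200.4 and 262 TPM. Trib3 and Chac1 were close to the limit of counting, with 9 to 93 counts for Trib3 and 7 to 92 counts for Chac1.

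Atf4 (NCBI Gene 11911) encodes the transcription factor that carries out most of the integrated stress response. Its level was 162, 105 and 94.6 CPM in Db replicates 1, 2 and 3, and 169, 134 and 129.8 CPM in Db + Ato10 replicates 1, 2 and 3. Both libraries numbered 1 were the highest of their groups, and the groups overlapped through Db replicate 1. The means were 120.3 ± 36.1 CPM in Db and 144 ± 21.2 CPM in Db + Ato10 (SD, n = 3), a difference smaller than the SD of the Db group. Its log2 fold change (Db + Ato10 over Db) was 0.27 ± 0.24 (SE), with an adjusted p of 0.557 by edgeR and an exact two-sided permutation p of 0.3. Without Db replicate 1 it was 0.55.

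Atf3 (NCBI Gene 11910) encodes a transcription factor that is induced by ATF4 and by many other stress and injury signals. It was counted at 5.08, 5.02 and 2.42 CPM in the Db libraries and at 53.5, 12.4 and 5.19 CPM in the Db + Ato10 libraries, in the order of their replicate numbers. Db + Ato10 replicate 1 was 4.31 times the next highest library, and replicate 3 was barely above Db replicate 1, with 66 against 64 counts. On the TPM scale the groups overlapped, since Db + Ato10 replicate 3 had 4.49 TPM and Db replicate 1 had 4.67 TPM. Mean levels were 4.18 ± 1.52 and 23.7 ± 26.1 CPM (SD, n = 3). The log2 fold change of 2.52 ± 0.87 (SE), a fold of 5.73, had an adjusted p of 0.25 by edgeR and 0.0315 by DESeq2, and an exact two-sided permutation p of 0.1. Over the alternatives tried, its adjusted p (edgeR, DESeq2 or limma) ranged from 0.000117 to 0.730. Leaving out Db replicate 1 gave a log2 fold change of 2.70, with an adjusted p of 0.155 by DESeq2, and leaving out Db + Ato10 replicate 1 gave 1.09.

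Ddit3 (NCBI Gene 13198) encodes CHOP, a factor linked to cell death under prolonged ER stress. Ddit3 stood at 33.4, 13.3 and 15.3 CPM in Db replicates 1, 2 and 3, and at 34.9, 20.03 and 17.9 CPM in Db + Ato10 replicates 1, 2 and 3. The pattern was that of Atf4: both libraries numbered 1 were highest and nearly equal, and the groups overlapped. Its log2 fold change was 0.24 ± 0.43 (SE), with an edgeR adjusted p of 0.769 and an exact permutation p of 0.5. Leaving out Db replicate 1 gave 0.79, and leaving out Db + Ato10 replicate 1 turned it to -0.11.

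The ATF4 target Asns (NCBI Gene 27053) encodes asparagine synthetase. It had 5.24, 8.49 and 5.81 CPM in Db replicates 1, 2 and 3, and 21.3, 12.7 and 7.87 CPM in Db + Ato10 replicates 1, 2 and 3. Here Db replicate 1 was the lowest library, and the groups overlapped only between Db replicate 2 and Db + Ato10 replicate 3. Group means were 6.51 ± 1.73 and 13.98 ± 6.82 CPM (SD, n = 3). For Asns the log2 fold change was 1.11 ± 0.41 (SE), with an adjusted p of 0.265 by edgeR and 0.12 by DESeq2, and an exact permutation p of 0.2. It was 0.99 without Db replicate 1, and 0.68 when Db + Ato10 replicate 1 was left out, so its sign did not rest on either library. Its adjusted p over the alternatives ranged from 0.00431 (DESeq2 without Db + Ato10 replicate 3) to 0.999.

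Trib3 (NCBI Gene 228775), a pseudokinase that feeds back on ATF4, was low throughout: 0.953, 1.04 and 1.45 CPM in Db replicates 1, 2 and 3, and 6.05, 2.16 and 0.708 CPM in Db + Ato10 replicates 1, 2 and 3. The lowest and the highest library both belonged to the Db + Ato10 group. Trib3 had a log2 fold change of 1.38 ± 0.75 (SE), with an adjusted p of 0.372 by edgeR and an exact permutation p of 0.4. Leaving out Db replicate 1 gave 1.28, and leaving out Db + Ato10 replicate 1 gave 0.34. Chac1 (NCBI Gene 69065), which degrades glutathione and is an ATF4 target, had 1.43, 0.78 and 0.807 CPM in the Db libraries and 5.98, 0.472 and 0.945 CPM in the Db + Ato10 libraries. Db + Ato10 replicate 1 alone stood out, at 4.19 times the next library, and the other 5 libraries were at most 18 counts each. Chac1 had a log2 fold change of 1.31 ± 0.95 (SE), with an edgeR adjusted p of 0.477 and an exact permutation p of 0.8. It was 1.66 with Db replicate 1 left out, and turned to -0.51 with Db + Ato10 replicate 1 left out.

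Xbp1 (NCBI Gene 22433) encodes the factor made through IRE1. The gene had 204, 115 and 149.7 CPM in Db replicates 1, 2 and 3, and 193, 185 and 172 CPM in Db + Ato10 replicates 1, 2 and 3. Db replicate 1 was the highest library, and the other 2 Db libraries lay below the whole Db + Ato10 group. For the gene as a whole the log2 fold change was 0.24 ± 0.23 (SE), with an adjusted p of 0.574 by edgeR and an exact permutation p of 0.4. It was 0.49 without Db replicate 1, and fell to 0.06 without Db replicate 2. The transcript table lists the spliced and the unspliced form of Xbp1 separately, matched by their RefSeq identifiers, which differ by the intron that IRE1 removes. That intron is shown because the share of the spliced form rests on it. In the GENCODE M21 transcript it is 26 bases long and lies in exon 4, and its removal lengthens the reading frame from 267 to 371 codons. The pattern CNGCAG occurs at both ends of the intron, and because of the repeated bases 7 placements give the same spliced sequence. The one shown starts and ends at the cut between CNG and CAG that is known for IRE1, at chr11:5524279-5524304 of GRCm38 on the + strand. Of 2 places in the transcript with a pair of CNGCAG at this distance, it is the one whose removal lengthens the frame. Capitals mark the intron as placed.
unspliced Xbp1: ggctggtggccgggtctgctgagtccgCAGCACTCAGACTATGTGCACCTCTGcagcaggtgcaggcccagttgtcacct
spliced Xbp1: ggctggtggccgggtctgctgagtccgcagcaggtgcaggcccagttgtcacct

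The share of Xbp1 counts assigned to the spliced transcript was 3.70%, 9.31% and 6.79% in Db replicates 1, 2 and 3, and 2.75%, 6.51% and 6.71% in Db + Ato10 replicates 1, 2 and 3. Both libraries numbered 1 had the lowest share of their group, and the groups overlapped. The 95% Wilson intervals were 3.04% to 4.51% for Db replicate 1 (95 of 2563 counts), 7.84% to 10.97% for Db replicate 2 and 5.74% to 8.03% for Db replicate 3. They were 2.204% to 3.38% for Db + Ato10 replicate 1 (81 of 2964 counts), 5.63% to 7.48% for replicate 2 and 5.72% to 7.82% for replicate 3. These intervals cover counting error only and not the assignment of reads between forms that differ by so few bases. Within each group the interval of replicate 1 lay apart from those of the other libraries. Group means were 6.60% ± 2.81 in Db and 5.32% ± 2.23 in Db + Ato10 (SD, n = 3), a difference of -1.28 percentage points, smaller than either SD, with an exact two-sided permutation p of 0.5. This difference was not stable: it was -2.73 points without Db replicate 1, and turned to 0.0782 points without Db replicate 2 and to 0.0122 points without Db + Ato10 replicate 1. The spliced transcript itself had 6.10, 8.66 and 8.23 TPM in the Db libraries and 3.88, 9.70 and 8.79 TPM in the Db + Ato10 libraries. Its log2 fold change was 0.05 ± 0.39 (SE), with an adjusted p of 0.983 by edgeR over 30175 tested transcripts, and that of the unspliced transcript was 0.29 ± 0.26 (SE), with an adjusted p of 0.816. The libraries with the highest total Xbp1 were thus not those with the highest spliced share.

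**Figure D2:**
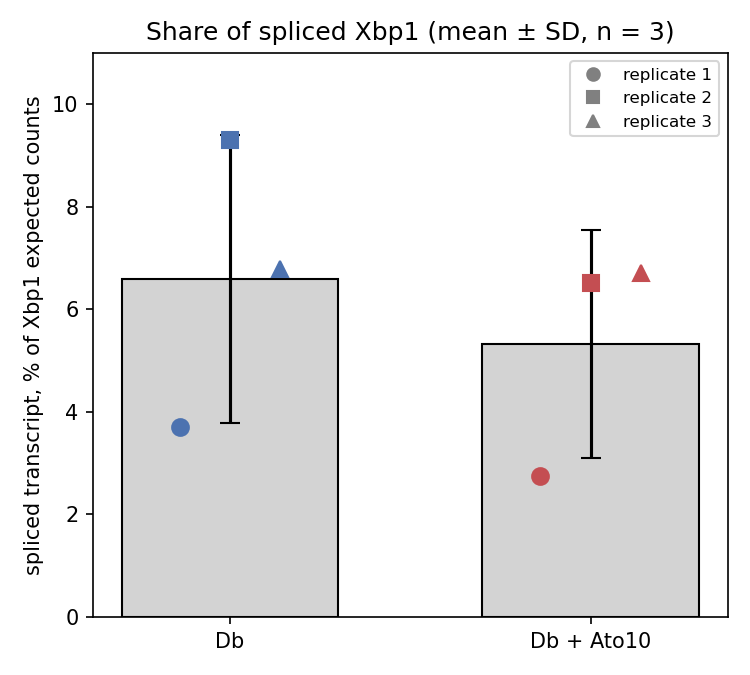
Share of Xbp1 expected counts assigned to the spliced transcript, in percent, in the 3 Db and 3 Db + Ato10 libraries; bars and error bars give the mean and SD and points the libraries. Replicate 1 is the lowest of each group, at 3.70% in Db and 2.75% in Db + Ato10.

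Hspa5 (NCBI Gene 14828) encodes BiP, the main chaperone of the ER lumen and the usual marker of its response. It reached 1089 CPM in Db replicate 1, against 285 and 373 CPM in Db replicates 2 and 3, and 397, 424 and 327 CPM in Db + Ato10 replicates 1, 2 and 3. Db replicate 1 was 2.57 times the next library, while Db replicate 3 lay within the Db + Ato10 range and Db replicate 2 below it. The mean was 583 ± 441 CPM in Db and 383 ± 50.3 CPM in Db + Ato10 (SD, n = 3), so the SD of the Db group was larger than the difference. The log2 fold change was -0.60 ± 0.51 (SE), with an adjusted p of 0.534 by edgeR and an exact permutation p of 0.9. Without Db replicate 1 it turned to 0.23, with an adjusted p of 0.711 by edgeR.

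Dnajb9 (NCBI Gene 27362) encodes ERdj4, a co-chaperone of BiP that restrains IRE1. It had 139, 55.5 and 52.2 CPM in Db replicates 1, 2 and 3, and 50.9, 79.7 and 72.6 CPM in Db + Ato10 replicates 1, 2 and 3. Db replicate 1 was again far above, at 1.74 times the next library, and the groups overlapped. The log2 fold change was -0.27 ± 0.41 (SE), with an adjusted p of 0.727 by edgeR and an exact permutation p of 0.8, and without Db replicate 1 it turned to 0.34. Herpud1 (NCBI Gene 64209), a membrane protein of ER-associated degradation, had 1073, 476 and 443 CPM in the Db libraries and 230.5, 314 and 679 CPM in the Db + Ato10 libraries. Db replicate 1 was 1.58 times the next library, which was Db + Ato10 replicate 3, and Db + Ato10 replicate 1 was the lowest of the 6 libraries. Herpud1 had a log2 fold change of -0.70 ± 0.52 (SE), with an adjusted p of 0.484 by edgeR and an exact permutation p of 0.4. It was -0.16 without Db replicate 1, and among the Db + Ato10 libraries it was -0.42 with replicate 1 and -1.27 with replicate 3 left out. Its adjusted p over the alternatives ranged from 0.0339 (DESeq2 without Db + Ato10 replicate 3) to 0.999.

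**Figure D3:**
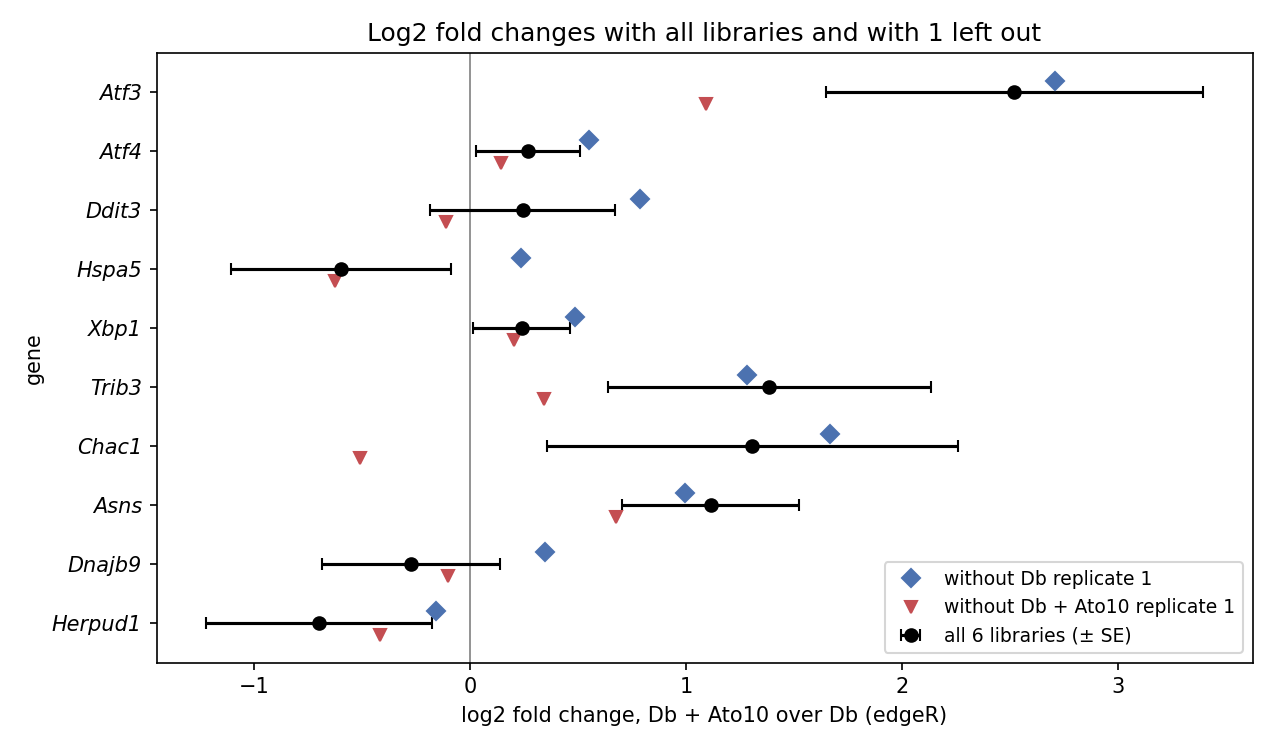
Log2 fold change (Db + Ato10 over Db, edgeR) of the 10 stress genes with all 6 libraries (black, with SE), with Db replicate 1 left out (blue) and with Db + Ato10 replicate 1 left out (red). Hspa5 goes from -0.60 to 0.23 and Dnajb9 from -0.27 to 0.34 without Db replicate 1, and Chac1 from 1.31 to -0.51 without Db + Ato10 replicate 1.

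The 10 genes thus differed in which library was high. Each of the 10 had its highest CPM in a library numbered 1, against 49.3% of all tested genes. Hspa5, Xbp1, Dnajb9 and Herpud1 were highest in Db replicate 1, as were 19.4% of tested genes, and Atf3, Atf4, Ddit3, Trib3, Chac1 and Asns were highest in Db + Ato10 replicate 1, as were 29.8% of tested genes. For Atf4 and Ddit3 this depended on the scale, since by TPM Db replicate 1 was the higher of the libraries numbered 1 (181 against 177 TPM for Atf4 and 72.4 against 66.0 TPM for Ddit3). Hspa5, Dnajb9 and Herpud1 exceeded 1.5 times every other library in Db replicate 1, which 0.95% of tested genes did. Atf3, Trib3, Chac1 and Asns did so in Db + Ato10 replicate 1, as did 10.9% of tested genes. The value of 1.5 was chosen after these levels had been seen. Over the 6 libraries, as a description, the Pearson correlation of log2 CPM was 0.94 between Atf3 and Asns, 0.86 between Atf3 and Trib3, 0.93 between Atf4 and Ddit3, and 0.86 between Hspa5 and Dnajb9. Herpud1 correlated negatively with Asns (-0.86), Trib3 (-0.85) and Atf3 (-0.68) and positively with Dnajb9 (0.74). The 6 points share the libraries that stood apart. With Db replicate 1 left out, the median log2 fold change of the 10 genes was 0.67, against 0.25 with all libraries, and 9 of the 10 had a positive value, the exception being Herpud1. With Db + Ato10 replicate 1 left out instead, the median was 0.02 and 5 of the 10 had a positive value.

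Among 10014 tested genes with a mean of at least 10 CPM, those most like Hspa5 over the 6 libraries were Pdia4 (r = 0.995), Hyou1 (0.995) and Fbxo30 (0.991). Pdia4 had 193, 70.7 and 95.0 CPM in the Db libraries and 93.3, 99.6 and 81.6 CPM in the Db + Ato10 libraries, high in Db replicate 1 as Hspa5 was. Most like Atf4 were Nxf1 (0.996), Kat7 (0.990) and Ccnl2 (0.978), and most like Ddit3 were Atxn2l (0.989), Heatr5a (0.985) and P4ha2 (0.984). Nxf1 had 105, 84.2 and 81.4 CPM in the Db libraries and 107, 93.7 and 93.8 CPM in the Db + Ato10 libraries, a narrower range than that of Atf4.

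The transcript table held 18 transcripts of the 10 genes, of which 16 were tested. EdgeR called 0 of these, as it did 0 of 30175 transcripts (0%), and found 1 (that of Atf3) and 2471 of all transcripts at an unadjusted p under 0.05. DESeq2 also called 0 of the 16, against 889 of all transcripts (2.95%). Atf4 had 2 transcripts, and the one carrying fewer of its counts took 23.1%, 34.9% and 36.1% of them in Db replicates 1, 2 and 3, and 41.7%, 36.4% and 27.9% in Db + Ato10 replicates 1, 2 and 3. The libraries numbered 1, nearly equal in total Atf4, were the lowest and the highest in this share. For Asns, the counts of Db replicate 2 (98.0) were assigned almost wholly to a transcript that had 0 counts in the other 5 libraries, so its transcripts were not read separately.

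The other genes of the pathway were described by lists. Over the 90 genes of the pathway lists, of which 88 were tested, edgeR called 0, with 10 of the 88 at an unadjusted p under 0.05 (9 higher and 1 lower), against 16.9% of all tested genes (1533 higher and 781 lower of 13679). DESeq2 called 6 of the 88 as higher and 0 as lower, against 6.46% of all tested genes (707 higher and 177 lower). The shares in the pathway lists were thus below or close to those over all genes, and the median log2 fold change was -0.05. These background shares hold for the counts of each list below. Leaving out Db + Ato10 replicate 3 gave 8 calls by edgeR in the pathway lists (8.18% over all genes), and leaving out any other single library gave 0. The count of 6 by DESeq2 was 2 when Db replicate 1 was left out, 5 for Db replicate 2, 1 for Db replicate 3, 1 for Db + Ato10 replicate 1, 3 for Db + Ato10 replicate 2 and 16 for Db + Ato10 replicate 3. Over all genes these fits gave 195 (1.44%), 623, 223, 313, 372 and 2614 (19.3%) calls, in the same order. The stress sensors and the proteases that activate ATF6 gave 0 calls among 6 by either tool, with a median of -0.16 and 1 of 6 positive (Atf6b). Without Db replicate 1 the median turned to 0.03, with 4 of 6 positive. Ern1, which encodes IRE1 alpha, was the lowest, with 10.8, 7.97 and 8.88 CPM in the Db libraries and 3.32, 6.14 and 7.56 CPM in the Db + Ato10 libraries. Its groups did not overlap, and its log2 fold change was -0.70 ± 0.34 (SE), with an adjusted p of 0.335 by edgeR, and -0.56 without Db replicate 1. Atf6b was the highest of the 6, at 0.04.

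Of the 16 ER chaperones and folding enzymes, 0 were called by edgeR or DESeq2 and 0 had an unadjusted p under 0.05, and the median was -0.21. In 13 of the 16 the highest library was Db replicate 1, and without it the median turned to 0.18. Their summed level was 5290 CPM in Db replicate 1, 2766 and 3761 CPM in Db replicates 2 and 3, and 3969, 3856 and 3317 CPM in Db + Ato10 replicates 1, 2 and 3. Hyou1, a large chaperone of the ER lumen, had the lowest log2 fold change of the list, -0.63 ± 0.46 (SE), with 241, 67.6 and 92.4 CPM in the Db libraries and 89.4, 90.8 and 77.4 CPM in the Db + Ato10 libraries. Without Db replicate 1 it turned to 0.12. Ero1l, the oxidase that recycles protein disulfide isomerase, had the highest value, 1.49 ± 0.77 (SE), and it rested on Db + Ato10 replicate 1. It had 82.1, 58.1 and 59.4 CPM in the Db libraries, 425 CPM in Db + Ato10 replicate 1, and 70.4 and 60.8 CPM in replicates 2 and 3. Without Db + Ato10 replicate 1 its log2 fold change was -0.01, and without Db replicate 1 it was 1.69.

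The 13 genes of ER-associated degradation gave 0 calls by either tool, 0 at an unadjusted p under 0.05, and a median of -0.06, from Edem3 (-0.27) to Derl3 (0.66). Derl3, which is also on the B and plasma cell marker list below, was at most 4.68 CPM in any library, with a log2 fold change of 1.37 without Db replicate 1, and -0.37 when Db + Ato10 replicate 1 was left out. The list's median turned to 0.03 without Db replicate 1. The 14 genes of eIF2, its kinases and its phosphatase gave 0 calls by either tool and 1 lower gene (Eif2ak1) at an unadjusted p under 0.05 by edgeR, with a median of -0.08, from Eif2s3x (-0.56) to Ppp1r15a (0.92). Ppp1r15a, the stress-induced phosphatase subunit GADD34, had 31.2, 24.1 and 22.3 CPM in the Db libraries and 95.4, 21.5 and 29.1 CPM in the Db + Ato10 libraries. It was high in Db + Ato10 replicate 1 alone, and without that library its log2 fold change was -0.02, against 1.10 without Db replicate 1. The X-linked Eif2s3x had 249, 141 and 137 CPM in the Db libraries and 100.2, 124 and 133 CPM in the Db + Ato10 libraries. It was highest in Db replicate 1, the library with only 2 Y-linked counts, and without that library its log2 fold change was -0.21. The 12 cytosolic aminoacyl-tRNA synthetases, several of them ATF4 targets, gave 0 calls by either tool, 0 at an unadjusted p under 0.05 and a median of 0.02, from Iars (-0.27) to Lars (0.20).

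ATF4 partners and targets held 21 tested genes of 23 listed, with Fgf21 and Pycr1 too low to be tested. EdgeR called 0 of the 21, with 5 higher and 0 lower at an unadjusted p under 0.05 (16.9% over all genes). DESeq2 called 4 of these 5 as higher (Slc7a11, Cebpb, Nupr1 and Gdf15, without Aldh18a1) and 0 as lower (6.46% over all genes). These 4 calls became 2 when Db replicate 1 was left out, 3 for Db replicate 2, 1 for Db replicate 3, 1 for Db + Ato10 replicate 1, 3 for Db + Ato10 replicate 2 and 9 for Db + Ato10 replicate 3. In the same order, DESeq2 called 195 (1.44%), 623, 223, 313, 372 and 2614 (19.3%) of all genes in these fits. The median of the list was 0.42, with 15 of 21 positive. It was 0.48 without Db replicate 1, and fell to 0.26 when Db + Ato10 replicate 1 was left out and to 0.19 with both left out. In 13 of the 21 genes the highest library was Db + Ato10 replicate 1. Slc7a11, the cystine transporter, had 0.953, 0.606 and 0.969 CPM in the Db libraries and 63.9, 6.07 and 1.18 CPM in the Db + Ato10 libraries. Its groups did not overlap, and its log2 fold change of 4.81 ± 1.48 (SE) was 2.11 without Db + Ato10 replicate 1, and 4.93 when Db replicate 1 was left out. Gdf15, a secreted stress factor, had 20.01, 10.6 and 12.3 CPM in the Db libraries and 64.5, 39.3 and 29.4 CPM in the Db + Ato10 libraries, again without overlap. Its log2 fold change was 1.64 ± 0.37 (SE), 1.27 without Db + Ato10 replicate 1, and 1.98 when Db replicate 1 was left out. Nupr1, a stress-induced nuclear protein, had 18.3, 29.2 and 15.9 CPM in the Db libraries and 162, 56.4 and 33.0 CPM in the Db + Ato10 libraries. Its groups did not overlap either, with a log2 fold change of 2.00 ± 0.61 (SE), 1.09 without Db + Ato10 replicate 1, and 1.92 when Db replicate 1 was left out. Cebpb, which encodes a dimer partner of ATF4, had 37.4, 31.4 and 10.7 CPM in the Db libraries and 324, 53.1 and 51.2 CPM in the Db + Ato10 libraries. These did not overlap, and its log2 fold change of 2.44 ± 0.88 (SE) was 0.99 without Db + Ato10 replicate 1, and 2.80 when Db replicate 1 was left out. The lowest gene of the list was Cth (-0.76, and -0.61 without Db replicate 1), an enzyme of cysteine synthesis.

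Stress-linked death genes all had a positive log2 fold change (7 of 7, against 6757 of all 13679 tested genes), with a median of 1.18, and 6 of 7 were positive without Db + Ato10 replicate 1. The negative one was then Ero1l, which is also among the chaperones above and is counted once in the total of 88. EdgeR called 0, with 4 higher (Casp12, Bbc3, Pmaip1 and Tnfrsf10b) and 0 lower at an unadjusted p under 0.05 (16.9% over all genes), and DESeq2 called Casp12 and Bbc3 as higher (6.46% over all genes). The count of 2 was also 2 when Db replicate 2 was left out (623 over all genes). It was 6 for Db + Ato10 replicate 3 (19.3% over all genes) and 0 for each of the other libraries. Bbc3, which encodes the death protein PUMA, had 1.59, 2.43 and 1.70 CPM in the Db libraries and 8.85, 6.81 and 3.78 CPM in the Db + Ato10 libraries. Its groups did not overlap, and its log2 fold change was 1.77 ± 0.40 (SE), 1.49 without Db + Ato10 replicate 1, and 1.67 when Db replicate 1 was left out. Casp12, an ER-linked caspase of rodents, had 0.874, 3.03 and 1.61 CPM in the Db libraries and 15.3, 10.9 and 2.99 CPM in the Db + Ato10 libraries. Here Db replicate 2 and Db + Ato10 replicate 3 were nearly equal, so the groups overlapped, and the log2 fold change was 2.41 ± 0.71 (SE), 2.09 without Db replicate 1, and 1.93 when Db + Ato10 replicate 1 was left out. Dapk3 was the lowest of the 7, at 0.18. The list's median was 1.36 without Db replicate 1, and 0.56 when Db + Ato10 replicate 1 was left out. For these 6 genes called by DESeq2, its adjusted p lay between 0.00175 and 0.0347. Over the alternatives (edgeR, DESeq2 or limma) the adjusted p of Slc7a11 ranged from 5.05e-08 to 0.712 and that of Cebpb from 0.00252 to 0.712.

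**Figure D4:**
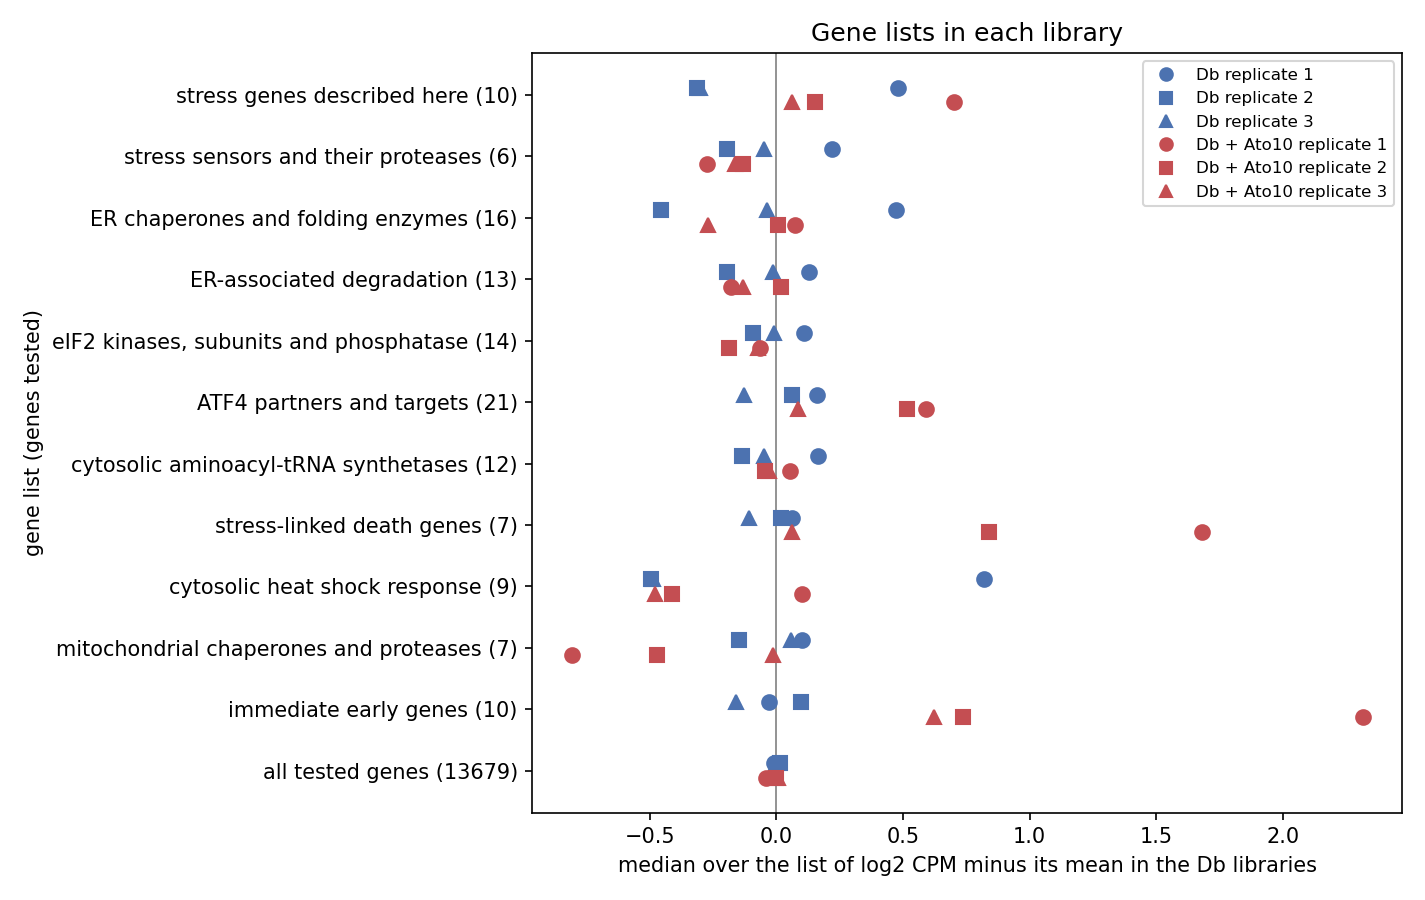
Median over each gene list of log2 CPM minus its mean in the Db libraries, with a point per library (blue for Db, red for Db + Ato10) and the number of tested genes in parentheses. ER chaperones and folding enzymes sit at 0.47 in Db replicate 1, and stress-linked death genes at 1.68 and immediate early genes at 2.32 in Db + Ato10 replicate 1.

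Other stress programmes were counted for comparison. The cytosolic heat shock list gave 0 calls among 9 by edgeR and DESeq2 and 2 at an unadjusted p under 0.05 (Hspb1 higher and Hsph1 lower), with a median of -0.41, from Hsph1 (-1.42) to Hspb1 (1.53). In 8 of the 9 the highest library was Db replicate 1, as for Hspa5 and Dnajb9, and without that library the median was 0.14. Hsph1 had 301, 79.2 and 100.9 CPM in the Db libraries and 51.4, 51.6 and 75.7 CPM in the Db + Ato10 libraries, and its log2 fold change was -0.58 without Db replicate 1. The mitochondrial chaperones and proteases gave 0 calls among 7 by either tool, 0 at an unadjusted p under 0.05 and a median of -0.40, from Hspd1 (-0.60) to Clpp (-0.16). Their median was -0.20 without Db + Ato10 replicate 1. It was -0.63 without Db + Ato10 replicate 3, where DESeq2 called 4 of the 7 (19.3% over all genes). Immediate early genes, which respond within minutes to many signals and to tissue handling, had a median of 1.41, with 10 of 10 positive, and were highest in Db + Ato10 replicate 1 in 10 of 10, as Atf3 was. Without that library the median was 0.78, with 7 of 10 positive, and without Db replicate 1 it was 1.603. EdgeR called 0 of these 10, with 6 higher and 0 lower at an unadjusted p under 0.05 (16.9% over all genes), and DESeq2 called Fos, Junb, Egr1 and Ier2 as higher (6.46% over all genes). Junb, the highest, had 10.2, 18.1 and 12.9 CPM in the Db libraries and 284, 53.5 and 38.3 CPM in the Db + Ato10 libraries, a log2 fold change of 3.20 ± 0.83 (SE), which was 3.05 without Db replicate 1, and 1.75 when Db + Ato10 replicate 1 was left out. The other 3 had log2 fold changes of 3.04 (Fos), 1.83 (Egr1) and 1.82 (Ier2), which were 3.03, 1.83 and 1.77 without Db replicate 1, but 1.10, 1.15 and 1.01 when Db + Ato10 replicate 1 was left out. The 4 calls by DESeq2 in this list became 1 when Db replicate 1 was left out, 2 for Db replicate 2, 1 for Db replicate 3, 3 for Db + Ato10 replicate 1, 4 for Db + Ato10 replicate 2 and 6 for Db + Ato10 replicate 3. Calls over all genes in these fits were 195 (1.44%), 623, 223, 313, 372 and 2614 (19.3%), in the same order. The lowest of the list was Ier3 (0.55), which was 0.54 without Db replicate 1 and turned to -0.24 without Db + Ato10 replicate 1.

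Several marker lists of other cell types were highest in Db + Ato10 replicate 1, the library in which Atf3, Trib3, Chac1 and Asns were highest, but not all. Neutrophil markers summed to 4.77, 7.19 and 3.63 CPM in the Db libraries and 9986, 89.9 and 9.84 CPM in the Db + Ato10 libraries. Their most abundant gene was S100a9, and 3 of the 6 markers (Mmp8, Ngp and Camp) were at 0 in at least 1 library. Macrophage markers (7 of 7 tested, C1qa the most abundant) summed to 106, 169 and 133 CPM in the Db libraries and 1782, 659 and 192 CPM in the Db + Ato10 libraries. Fibroblast markers (7 of 7 tested, Col1a2 the most abundant) summed to 91.9, 169.6 and 111 CPM in the Db libraries and 1479, 622 and 224 CPM in the Db + Ato10 libraries. In these 3 lists the order of the Db + Ato10 libraries was that of Atf3, Slc7a11 and Nupr1. B and plasma cell markers summed to 15.7, 40.8 and 20.4 CPM in Db and 477, 172 and 37.1 CPM in Db + Ato10, with Jchain the most abundant and Ms4a1 and Tnfrsf17 at 0 in some libraries. T cell markers (5 of 6 in the table, Cd3g the most abundant) summed to 1.67, 5.28 and 2.18 CPM in Db and 16.8, 15.3 and 2.52 CPM in Db + Ato10, nearly equal in Db + Ato10 replicates 1 and 2. Squamous and urothelial markers (Krt5 the most abundant) summed to 7.62, 5.80 and 5.57 CPM in Db and 180.2, 114 and 41.5 CPM in Db + Ato10, with Krt14, Krt15 and Krt6a at 0 in some libraries. Adipocyte markers (3 of 4 in the table, Cidec the most abundant) summed to 0.318, 0.346 and 0.646 CPM in Db and 0.976, 1.62 and 1.02 CPM in Db + Ato10, highest in Db + Ato10 replicate 2, with Adipoq and Plin1 at 0 in some libraries.

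Kidney cell markers differed by cell type in that library. Proximal tubule markers (6 of 6 tested, Slc34a1 the most abundant) summed to 9457, 6411 and 9011 CPM in the Db libraries and 1083, 4419 and 8775 CPM in the Db + Ato10 libraries, lowest in Db + Ato10 replicate 1. Thick ascending limb markers (5 of 5 tested, Umod the most abundant) summed to 8415, 9185 and 8490 CPM in Db and 4541, 2163 and 6044 CPM in Db + Ato10. Those of the distal convoluted tubule (3 of 3 tested, Slc12a3 the most abundant) summed to 1534, 2154 and 1240 CPM in Db and 730.3, 432 and 973 CPM in Db + Ato10. Both of these lists were lowest in Db + Ato10 replicate 2 and not in replicate 1. Collecting duct markers (Aqp2 the most abundant) summed to 774, 599 and 945 CPM in Db and 601, 359 and 619 CPM in Db + Ato10. Podocyte markers (Podxl the most abundant) summed to 569.8, 371 and 367 CPM in Db and 566, 197 and 373 CPM in Db + Ato10. Endothelial markers (Pecam1 the most abundant) summed to 347, 292 and 318 CPM in Db and 383, 152 and 304 CPM in Db + Ato10. All 3 were again lowest in Db + Ato10 replicate 2, while in replicate 1 the endothelial sum was the highest of the 6 libraries and the podocyte sum the second highest. DESeq2 called 0 of 6 proximal tubule, 0 of 5 podocyte and 0 of 6 endothelial markers. It called as lower 3 of 5 thick ascending limb markers (Slc12a1, Kcnj1 and Egf), 1 of 3 distal convoluted tubule markers (Slc12a3) and 2 of 6 collecting duct markers (Scnn1g and Slc4a1). It called as higher 6 of 7 macrophage markers, 4 of 7 fibroblast markers (Col1a1, Col1a2, Col3a1 and Lum), 4 of 6 tested squamous and urothelial markers (Krt5, Krt14, Krt15 and Sprr1a), 2 of 5 tested B and plasma cell markers (Mzb1 and Sdc1), 1 of 3 tested T cell markers (Cd3g) and 1 of 3 tested neutrophil markers (Mmp9), while S100a8 and S100a9 were given no adjusted p by DESeq2. These DESeq2 counts changed with single libraries. Without Db replicate 1 or 3 (195 and 223 over all genes), DESeq2 called 2 macrophage, 2 fibroblast and 0 B and plasma cell markers. Squamous and urothelial calls were 1 without Db + Ato10 replicate 1 or 2 (313 and 372 over all genes), where fewer of these markers could be tested. Krt5 had 0.397, 0.0866 and 0.404 CPM in the Db libraries and 73.3, 39.7 and 11.7 CPM in the Db + Ato10 libraries. It reached 10 counts only in the latter, so its direction was set by the filter. With any Db + Ato10 library left out it was not tested. Without Db + Ato10 replicate 3 (19.3% over all genes) DESeq2 called 7 macrophage, 6 fibroblast and 3 proximal tubule markers. EdgeR called 0 of these markers. At an unadjusted p under 0.05 it found 7 macrophage, 6 fibroblast, 5 squamous and urothelial, 4 B and plasma cell, 3 neutrophil, 1 T cell (Cd3g) and 1 adipocyte (Cidec) marker higher, and 4 collecting duct, 3 thick ascending limb, 2 distal convoluted tubule and 1 endothelial (Kdr) marker lower, with 0 of the proximal tubule and podocyte lists. Cidec, the 1 adipocyte marker tested, had 0.318, 0.346 and 0.484 CPM in Db and 0.911, 1.62 and 0.945 CPM in Db + Ato10. Like Krt5 it reached 10 counts only in the Db + Ato10 libraries, so its direction was set by the filter. In Db replicate 1, where Hspa5, Dnajb9 and Herpud1 were highest, the macrophage, fibroblast, T cell and B and plasma cell sums were the lowest of the 6 libraries, and the neutrophil sum lay between those of the other Db libraries. The part of these cell types in the levels of the stress genes was not tested.

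Since Hspa5 and several ATF4 targets were high in different libraries, their promoters were searched for known response elements. All 10 genes had a promoter window of 300 bases (250 before to 50 after the transcription start) in the RefSeq table of GRCm38.p6, which holds 32851 windows of that length. The ER stress response element was searched as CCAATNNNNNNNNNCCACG, the CEBP-ATF response element as TGATGNAA and the XBP1 element as TGACGTGG, each on both strands. The ER stress element was found in 1 of 10 windows, that of Hspa5, against 0.119% of all windows. The CEBP-ATF element was found in 5 of 10, those of Asns, Atf3, Chac1, Herpud1 and Trib3, against 3.97% of all windows. The XBP1 element was found in 0 of 10, against 0.676%. The 10 genes were listed as genes of these stress responses, and the elements searched are known ones of the same responses. A share above that of all windows is therefore no test. The windows around the matches upstream of the start are shown so that the element of Hspa5 and those of Asns, Atf3, Chac1 and Herpud1 can be read side by side. Capitals mark the match, and each sequence reads 5′ to 3′ along the strand of the gene: chr2:34772014-34772054 on the + strand for Hspa5, chr6:7693214-7693243 on the - strand for Asns, chr1:191183425-191183454 on the - strand for Atf3, chr2:119351038-119351067 on the + strand for Chac1 and chr8:94386306-94386335 on the + strand for Herpud1. In Atf3, Chac1 and Herpud1 the element lies on the opposite strand, so its reverse complement is in capitals.
Hspa5: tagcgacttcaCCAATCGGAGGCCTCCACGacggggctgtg
Asns: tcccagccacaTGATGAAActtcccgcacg
Atf3: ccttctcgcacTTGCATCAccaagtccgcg
Chac1: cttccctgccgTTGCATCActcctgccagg
Herpud1: accacggcgggTTGCATCAgcccgcacccc

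Of the 5 genes with the CEBP-ATF element, Asns, Atf3, Chac1 and Trib3 were highest in Db + Ato10 replicate 1, and Herpud1 was lowest there. Atf4 and Ddit3, without a match, were highest in that library too by CPM, as were 29.8% of all tested genes, but by TPM they were highest in Db replicate 1. A match is a description, not a site or a cause, and the absence of a match says only that these letters are not in this window.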

How the data were processed

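Kidney RNA was sequenced on BGISEQ-500, 1 library per mouse. The submitters' processing notes name HISAT, Bowtie2 2.2.5 and mm9, without their roles. For genes and for transcripts the authors deposited expected counts, estimated and not normalized, of which 91.5% of gene values were whole (equal to their rounded value). The authors also deposited FPKM (per length and library size) and TPM (per length, scaled to a common total) for the same libraries. Counts were rounded to whole numbers, and genes or transcripts that reached 10 counts in 3 or more libraries were tested with edgeR 4.0.16 in R 4.3.3 (TMM, quasi-likelihood F test, default settings, Benjamini-Hochberg adjustment over all tested). A call needed a fold change over 1.5 and an adjusted p under 0.05. The log2 CPM used a prior count of 2. Permutation tests and Wilson intervals used scipy 1.17.1 in Python 3.11.15, and figures used matplotlib 3.10.9. No libraries held identical counts (0 pairs).

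Genes were named by rule: the 10 listed, in each pathway or comparison list the highest and lowest gene and each gene called by edgeR or DESeq2, and the 3 genes most correlated with Atf4, Hspa5 and Ddit3. The members and lists were chosen with earlier results of these data known. Other genes named (markers, Y-linked genes, Pdia4 and Nxf1 as examples, and genes at an unadjusted p under 0.05) were named after their values were seen. Alternatives were DESeq2 1.42.0, limma 3.58.1 (voom, and log2 FPKM or TPM), upper-quartile normalization, other filters and thresholds, the replicate number as a block, and each library left out in turn. Leaving out both libraries numbered 1 was chosen after seeing the data.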

Additional observations from a re-analysis of the deposited data

How the results depend on the processing

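The counts of calls changed with the tool and with single libraries. EdgeR called 0 of the 10 stress genes, 0 of the pathway lists and 0 of all genes, and DESeq2 called 1, 6 and 884. By limma on log2(FPKM + 0.1) 1 gene was called in all and 0 of the 10. With 1 library left out in turn (edgeR or DESeq2), the counts ranged from 0 to 4 of the 10 genes, from 0 to 16 in the pathway lists and from 0 to 2614 over all genes, and the median log2 fold change of the 10 genes from 0.017 to 0.67. The log2 fold change then ranged from -0.12 to 0.79 for Ddit3, from -0.93 to 0.23 for Hspa5, from -0.51 to 1.83 for Chac1 and from -0.51 to 0.34 for Dnajb9. With both libraries numbered 1 left out, an alternative chosen after seeing the data, edgeR gave 0.19 for Hspa5, 0.50 for Dnajb9 and 0.11 for Herpud1, each opposite in sign to the fit on all libraries, and called 0 genes. DESeq2 then gave 0.20, 0.51 and 0.12 for these genes, with 80 genes called in all, 1 of them in the pathway lists and 0 among the 10. The cause of these differences was not tested.

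Atf3, Atf4, Xbp1, Trib3 and Asns kept a positive log2 fold change in each alternative that gave a value. The transcripts of the 10 genes had 0 calls in all 9 alternatives, and the difference in the spliced share of Xbp1 (-1.28 percentage points) was small beside its spread over libraries and not stable in sign, from -2.73 without Db replicate 1 to 0.0782 without Db replicate 2 over its 8 alternatives. Chac1 gave no value in 3 alternatives and Trib3 in 1, where they were too low to be tested. With 3 libraries in each group, 1 library had only 2 Y-linked counts and 1 had high neutrophil markers. With Trib3 and Chac1 also near the limit of counting, small differences could not be told from the spread between libraries.

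With the replicate number as a term (the replicate block), edgeR called 0 of the 10 genes and 0 genes in all (1856 at an unadjusted p under 0.05). Deviations from the group means correlated at -0.15, 0.06 and 0.21 between libraries with the numbers 1, 2 and 3, so the numbers do not pair the libraries throughout.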
